A study of Mus musculus with 11 samples.

Results

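Liver sections taken 36 h after paracetamol (acetaminophen, APAP) were compared with sections taken 24 h after it, and every gene that differed was sorted by whether its level at 36 h lay nearer to the uninjured level than at 24 h or farther from it. The comparison comprised 4 of the 11 sections of the series, chosen by their labels: sections A and B at 24 h and sections A and B at 36 h. The 3 uninjured sections at 0 h gave the reference level, and the 4 sections at 48 h entered the same fit and so shared in the estimate of the spread. Gene expression was measured with Visium, an assay in which a frozen section lies on a grid of barcoded spots that capture polyadenylated RNA, each spot wider than a cell and thus a mixture of several cells. The labels give the tissue, the time and a disease term, POD for the injured sections and Uninjured for the 0 h sections, and name no strain, allele, sex, age, slide or clock time. Per the study's methods, adult C57BL/6JCrl mice, male unless stated otherwise, were fasted and then injected with APAP into the peritoneum, and a single mouse liver was used for each time point of this assay. Read that way, A and B are sections of the same liver, the p-values measure variation among sections and not among animals, and mouse and time cannot be told apart.

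APAP is harmless at low dose because the liver conjugates it to glucuronate and sulfate, but in overdose cytochromes of pericentral hepatocytes, Cyp2e1 above all, turn it into a reactive quinone imine that binds protein and depletes glutathione. Hepatocytes around the central vein then die, neighbouring cells switch on chaperones and other stress genes, surviving hepatocytes secrete acute phase proteins, monocytes enter to clear debris, and hepatocytes later divide. In the paper's male mice the necrotic area peaked between 24 h and 36 h and then shrank, before hepatocyte proliferation peaked. Because each section was read as a bulk sum of its spots, fewer cells of a type and less RNA per cell cannot be told apart in any result here.

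The 4 sections held 45997655 and 31895764 unique molecular identifiers (UMIs, counts of captured molecules) at 24 h and 31292663 and 33338901 at 36 h, in 2521, 1648, 1970 and 2035 spots that passed the filter. The summed level of 8 hepatocyte markers lay at 106570.0 and 115670.0 UMIs per 1000000 of the scaled library (CPM) at 24 h and 114910.0 and 129340.0 CPM at 36 h, and all 8 were detected, so the labelled tissue carried its defining markers. Spots poor in hepatocyte transcripts, defined by a hepatocyte marker score under the first percentile of the 0 h spots, made up 18.5% and 19.3% of spots at 24 h and 6.24% and 4.67% at 36 h. In the 48 h sections A to D they made up 9.65%, 10.1%, 20.2% and 7.33%, so the share did not fall steadily with time. Whether it follows the necrotic area was not tested. The sections of a time point also differed from each other. In 36 h B the mitochondrial share of UMIs was 4.53% against 1.79%, the summed level of 7 mesenchymal markers was 462 against 204 CPM, and the summed level of 4 mesothelial markers was 21.3 against 1.91 CPM, with 1.59 and 1.95 CPM at 24 h. The summed level of 7 metallothionein and zinc transporter genes was 2896 and 22667 CPM in A and B at 24 h and 1791 and 15432 CPM in A and B at 36 h. That of 5 erythroid markers was 351 and 1078 CPM at 24 h and 316 and 1203 CPM at 36 h. That of 30 genes of cholesterol synthesis and lipogenesis was 6851 and 2762 CPM at 24 h and 9636 and 2284 CPM at 36 h. Neutrophil markers, 5 genes summed, reached 41.5 and 142 CPM at 24 h and 25.4 and 66.6 CPM at 36 h. The chi-square statistic comparing the counts of 36 h A and 36 h B was 212 per gene, and that of the 24 h sections 126. Across the time points it was 207 between the A sections, 209 between the B sections, 273 between 24 h B and 36 h A and 324 between 24 h A and 36 h B.

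By edgeR's quasi-likelihood test, 2315 of 14821 genes tested (15.6%) were called different at 36 h at an adjusted p under 0.05, of which 1044 (7.04% of genes tested) were higher and 1271 (8.58%) lower. A change of at least 2-fold was seen in 628 of the higher genes and 281 of the lower ones. Both 36 h sections lay on the same side of both 24 h sections for all called genes but 1, as they did for 54.1% of all genes tested. The median gene moved by 0.024 on the log2 scale, so directions are given against a nearly level background. Scaling by the total UMI count alone shifted that median to 0.13 and turned the split of called genes from 45.1% to 68.1% higher. The count of calls also leaned on single sections and on the spread borrowed from the other time points. It was 450 when 24 h A was left out, 903 for 24 h B, 3198 for 36 h A and 1338 for 36 h B, and it was 1 when the 4 sections were fitted on their own (2688 genes then had an unadjusted p under 0.05, against 4941 in the full fit). Where a gene group below is given with a number of calls kept, this is the number that held their direction and threshold with 24 h A, 24 h B, 36 h A and 36 h B left out in turn, in that order.

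**Figure D1:**
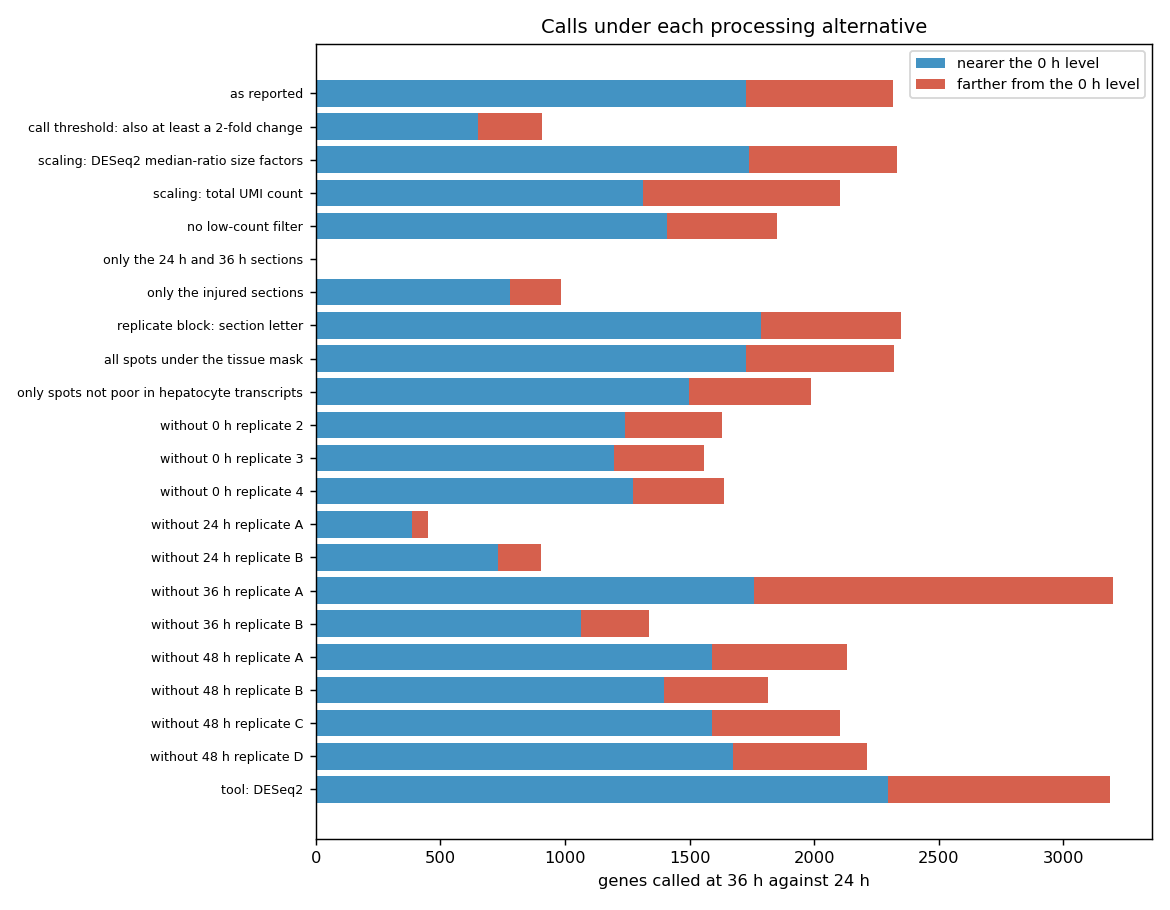
Number of genes called at 36 h against 24 h under each processing alternative (bars), divided into genes nearer to the 0 h level (blue) and farther from it (red). The count ranges from 1, in the fit on the 4 sections alone, to 3198, without 36 h A, and in each bar with more than 1 gene the nearer genes outnumber the farther ones.

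Of the 2315 called genes, 1726 lay nearer to the 0 h level at 36 h than at 24 h and 589 lay farther from it. The class was set by the fitted log2 distance from the 0 h sections and has no test of its own, and since the 24 h sections enter both distances, a gene that strayed at 24 h by chance tends to return. Among the genes nearer to the 0 h level, 747 had risen since 24 h, from a median of -1.28 below 0 h to -0.16, and 979 had fallen, from 0.82 above it to 0.080. Of these, 297 risers and 397 fallers had passed the 0 h level and lay on its other side. Genes moving away comprised 297 that rose, with a median of -0.11 at 24 h and 1.35 at 36 h against 0 h, and 292 that fell, from 0.13 to -0.48. When a gene also had to be called and at least 2-fold changed at 24 h against 0 h, 831 called genes were nearer and 23 farther. Distances from 0 h depend on the scaling. The scaling factors (TMM) ran from 0.78 to 0.81 in the 0 h sections and were 1.10 and 1.05 in 36 h A and B. Small differences from 0 h given below were read on this scale alone. Under total-count scaling 1315 called genes were nearer and 789 farther. Without 36 h A the balance was 1757 nearer and 1441 farther, and without 36 h B 1065 and 273.

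**Figure D2:**
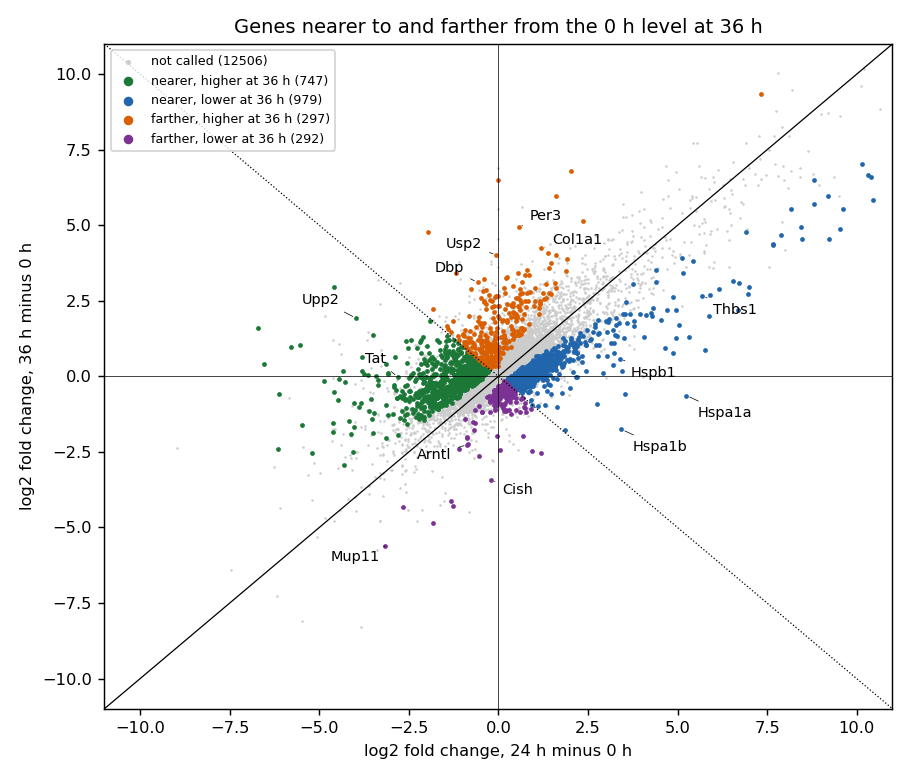
Each point is a gene, plotted by its fitted log2 fold change at 24 h against 0 h (horizontal axis) and at 36 h against 0 h (vertical axis). Grey points were not called at 36 h against 24 h, coloured points were, and genes between the solid and dotted diagonals to the left and right lie nearer the 0 h level at 36 h, whereas those above and below lie farther away. Called genes split into 747 and 979 in the side sectors and 297 and 292 in the upper and lower ones, and 4 of the 14821 genes lie outside the plotted range.

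Among genes with a mean of at least 10 CPM that rose towards the 0 h level, the largest change was in Upp2, the liver uridine phosphorylase. It was measured at 7.46 and 5.46 CPM in the 24 h sections A and B and at 341 and 433 CPM in the 36 h sections, against 102 ± 20.8 CPM (SD, n = 3) at 0 h. It therefore crossed the uninjured level, with a log2 change of 5.90 ± 0.58 SE and an edgeR adjusted p of 0.00119. Inmt, an indolethylamine N-methyltransferase, rose from 70.05 and 37.7 CPM to 2028 and 228 CPM, and although both 36 h sections lay above both 24 h sections, A lay above and B far below the uninjured level of 1185 ± 239 CPM. The bile-acid and drug carrier Slco1a4 went from 3.23 and 3.57 to 24.1 and 59.6 CPM and the growth-factor binding protein Igfbp3 from 1.18 and 2.17 to 9.56 and 25.9 CPM. The hepcidin gene Hamp2 rose from 10.97 and 4.50 to 169.5 and 56.4 CPM. Etnppl, a phospholyase for phosphoethanolamine, rose from 8.88 and 7.94 to 70.98 and 145 CPM, on either side of its 0 h level of 104 ± 11.3 CPM. At 48 h the means of Upp2, Inmt, Hamp2 and Etnppl were lower again, at 58.2, 340, 41.5 and 36.9 CPM (n = 4). Of these falls only that of Upp2 was called between 36 h and 48 h (edgeR adjusted p = 0.0150). The means of Slco1a4 and Igfbp3 were not lower at 48 h, at 44.4 and 34.2 CPM. At the other end, among called genes with a mean of at least 10 CPM at 24 h or 36 h, those that fell furthest towards 0 h were the inducible chaperones Hspa1a and Hspa1b, described below, followed by Ankrd1, a nuclear ankyrin-repeat protein induced by injury. Ankrd1 stood at 19.9 and 8.20 CPM at 24 h and 0.521 and 1.40 CPM at 36 h. Thbs1, a matrix glycoprotein made by platelets, monocytes and injured tissue, fell from 29.6 and 35.8 to 2.49 and 5.48 CPM (log2 fold change -3.03, SE 0.49, adjusted p = 0.00664), and Ch25h, which makes 25-hydroxycholesterol, from 9.76 and 12.7 to 0.55 and 1.85 CPM.

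Heat shock chaperones refold damaged proteins and are switched on by the factor Hsf1 through short inverted repeats in their promoters. Of 20 chaperone and co-chaperone genes tested, 14 fell and none rose, against 8.58% of all genes called lower, and all 20 lay on the lower side. The list's median was -1.15 on the log2 scale for 36 h minus 24 h, after 0.79 for 24 h minus 0 h, which left it at -0.60 against 0 h. Leaving out each section in turn kept 6, 9, 12 and 6 of the 14 calls. Hspa1a and Hspa1b encode the stress-inducible HSP70 and are near-identical neighbours on chromosome 17, so that reads may have been divided between them and their separate values are uncertain. The upstream stretches of this pair and of Hsph1, an HSP110 co-chaperone whose transcripts fell with them, are shown because the genes lost most of their transcripts together. Each is the 250 bases before the RefSeq start on GRCm38.p6, read 5′ to 3′ on the gene's own strand, with a match to a heat shock element of 2 units (TTCNNGAA or GAANNTTC, searched on both strands) in capitals.
Hspa1a, chr17:34972157-34972406, minus strand: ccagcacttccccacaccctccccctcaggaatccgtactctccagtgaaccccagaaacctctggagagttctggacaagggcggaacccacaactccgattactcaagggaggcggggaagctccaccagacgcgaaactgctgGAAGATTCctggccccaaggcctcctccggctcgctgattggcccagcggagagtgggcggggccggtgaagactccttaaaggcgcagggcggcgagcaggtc
Hspa1b, chr17:34959239-34959488, minus strand: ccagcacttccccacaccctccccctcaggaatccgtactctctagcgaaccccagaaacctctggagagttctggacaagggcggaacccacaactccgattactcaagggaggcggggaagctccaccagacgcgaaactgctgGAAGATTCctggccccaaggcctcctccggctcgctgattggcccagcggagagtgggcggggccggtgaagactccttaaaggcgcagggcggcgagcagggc
Hsph1, chr5:149636337-149636586, minus strand: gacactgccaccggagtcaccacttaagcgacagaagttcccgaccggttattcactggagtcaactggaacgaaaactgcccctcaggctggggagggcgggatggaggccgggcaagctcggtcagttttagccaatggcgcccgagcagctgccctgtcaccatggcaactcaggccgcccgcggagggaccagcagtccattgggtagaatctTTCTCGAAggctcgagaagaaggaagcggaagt

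The Hspa1a and Hspa1b stretches differ at 3 of 250 positions. Promoters of 300 bases, including 50 after the start, were found for 15 of the 20 chaperone genes, and 11 of the 15 held such a match, against 17.0% of all 27025 genes with a promoter in the table. The longer element, in which a further unit continues the alternation (3 units in all), was held by 4 of the 15, Chordc1, Hspd1, Hspe1 and Hsph1, and by 0.662% of all genes. A match is only a run of letters in a window and was not tested as a binding site.

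Hspa1a was measured at 167 and 99.9 CPM in the 24 h sections and 3.39 and 1.14 CPM in the 36 h sections, with 3.45 ± 2.98 CPM (SD, n = 3) at 0 h, a log2 change of -5.88 ± 0.82 SE with an edgeR adjusted p of 0.00468. Hspa1b went from 276 and 164 to 9.59 and 2.48 CPM, so that both 36 h sections lay below the uninjured sections (20.3 ± 13.6 CPM). Dnajb1, the HSP40 partner that hands substrates to HSP70, fell from 90.2 and 72.8 to 16.6 and 17.5 CPM and had the lowest adjusted p of the list, 0.00077. The constitutive chaperone Hspa8 fell from 2425 and 1709 to 662 and 464 CPM, again under its 0 h level of 1077 ± 125 CPM. Bag3, an HSP70 co-chaperone in selective autophagy, fell from 84.5 and 66.5 to 30.9 and 28.3 CPM and so returned to 30.2 ± 5.45 CPM, its level at 0 h. Hsph1 dropped from 152 and 102 to 27.03 and 13.2 CPM, and Hsp90aa1, the inducible HSP90, from 430.2 and 337 to 87.9 and 93.5 CPM. The small heat shock protein Hspb1 fell from 365 and 351 to 66.03 and 35.98 CPM with a wider error (log2 fold change -2.81, SE 0.75, adjusted p = 0.0345). The calls on Dnajb1, Hspa8, Hspa1a, Hspa1b, Bag3 and Chordc1 held under every alternative except the fit on the 4 sections alone.

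Other stress lists gave fewer calls, against 8.58% of all genes called lower. The unfolded protein response and its relative, the amino-acid response run by the factor Atf4, gave 6 falls and no rise among 22 genes tested (median -0.88), of which 2, 4, 6 and 4 were kept with each section left out. Psat1, a serine synthesis enzyme and Atf4 target, fell from 29.1 and 24.4 to 10.5 and 12.8 CPM (log2 fold change -1.20, SE 0.19, adjusted p = 0.00537) and was still well above its 0 h level of 0.757 ± 0.11 CPM. Mthfd2, a mitochondrial folate enzyme, fell from 16.3 and 13.1 to 6.06 and 5.19 CPM. Atf4 itself went from 228 and 196 to 131 and 102 CPM and its relative Atf5 from 272 and 226 to 85.8 and 133 CPM, and both ended below the uninjured sections, so that they counted as moving away. The endoplasmic chaperone Hspa5 (BiP), at 2421 and 1594 CPM at 24 h and 1145 and 617 CPM at 36 h, missed the threshold (adjusted p = 0.0778). Among 18 targets of the tumour suppressor p53, 5 fell (27.8%) and none rose (median -0.32), but only 0, 1, 4 and 1 of the 5 calls survived the removal of a section. Aen, an exonuclease, fell from 66.6 and 53.2 to 35.1 and 24.3 CPM, and the stress cytokine Gdf15 from 25.96 and 29.8 to 13.3 and 9.87 CPM. The cell cycle inhibitor Cdkn1a (p21), the best known target, was at 36.3 and 59.7 CPM at 24 h and 9.68 and 57.5 CPM at 36 h and was not called (adjusted p = 0.683). Among 24 antioxidant genes controlled by NRF2, 4 fell (16.7%), with a list median of -0.15, including Txnrd1 (thioredoxin reductase), from 156 and 152 to 106 and 94.997 CPM, and Srxn1 (sulfiredoxin), from 258 and 220.2 to 104 and 96.8 CPM, and with a section left out 0, 1, 3 and 0 of these were kept. Of 20 immediate early transcription factors 3 fell (15.0%), Jund, Egr1 and Atf3, a share not far above the background, and 0, 0, 1 and 1 of them were kept. On the lower side lay 18 of the 20, with a list median of -0.83 after 1.29 for 24 h minus 0 h.

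Acute phase proteins are secreted by hepatocytes under interleukin-6 (IL-6) and its signal transducer Stat3. Of 24 genes tested, 7 fell and 1 rose (median -0.91 for 36 h minus 24 h, after 1.54 for 24 h minus 0 h). The 3 fibrinogen chains, the clotting protein and a classic acute phase product, fell together and, on the TMM scale used here, ended under the 0 h level. Fgb was measured at 15503 and 18846 CPM at 24 h and 5072 and 4612 CPM at 36 h, against 6731 ± 987 CPM (SD, n = 3) at 0 h (log2 change -1.83 ± 0.19 SE, adjusted p = 0.00119 by edgeR). Fga went from 6785 and 9301 to 2286 and 2894 CPM and Fgg from 7635 and 8940.2 to 2506 and 2638 CPM. Haptoglobin (Hp), which binds free haemoglobin, fell from 14446 and 21788 to 8200.3 and 10446 CPM and stayed above 0 h. The exception was the iron hormone hepcidin, Hamp, which rose from 685 and 2342 to 4545 and 5039.7 CPM, with an adjusted p of 0.0414. With a section left out 6, 4, 3 and 4 of these 8 calls were kept. Among 19 genes of IL-6 signalling and its feedback, 5 fell and 1 rose. Socs3, the inhibitor that Stat3 induces, fell from 16.8 and 34.7 to 4.78 and 7.73 CPM, Stat3 from 105 and 150.3 to 79.99 and 72.3 CPM, and the shared receptor chain Il6st from 106 and 123 to 74.95 and 69.9 CPM. Bcl3, a nuclear partner of NF-κB, fell from 58.8 and 64.6 to 20.4 and 20.03 CPM, below its 0 h level of 36.9 ± 6.10 CPM. The leptin receptor Lepr rose from 1.18 and 0.606 to 2.84 and 3.74 CPM. With a section removed 5, 1, 5 and 4 of the 6 calls were kept, the lowest number being without 24 h B.

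Genes that build and break down the protein machinery fell by small amounts. Ribosome biogenesis, the making of ribosomes in the nucleolus, gave 17 falls and no rise among 28 genes tested (median -0.57, after 0.93 at 24 h against 0 h), and all 17 lay nearer to the 0 h level. Gnl3, a nucleolar GTP-binding protein, went from 70.1 and 62.4 to 32.9 and 30.99 CPM, close to its uninjured 25.8 ± 3.19 CPM (SD, n = 3), with a log2 fold change of -1.05 (SE 0.15, adjusted p = 0.00403). Nop56, of the box C/D ribonucleoprotein, fell from 60.1 and 52.8 to 28.7 and 31.7 CPM, and Nop2, an rRNA methyltransferase, from 23.9 and 21.5 to 12.95 and 13.01 CPM. The proteasome list had 21 falls among 31 subunits tested (median -0.45), of which 9 lay nearer to the 0 h level and 12 farther. Against 0 h the subunits had a median of 0.17 at 24 h and of -0.36 at 36 h. Psmd2 of the regulatory cap fell from 209 and 182 to 127 and 115 CPM, and Psmd14, its deubiquitinase, from 94.5 and 79.1 to 51.1 and 50.3 CPM. Leaving out each section kept 4, 9, 12 and 9 of the 17 and 3, 14, 16 and 10 of the 21 calls, so that both lists rested on 24 h A more than on the other sections. Under total-count scaling 11 and 12 calls were kept. Of 47 cytosolic ribosomal proteins 4 fell (0, 0, 1 and 0 kept), close to the background share of 8.58%, and 0 of these calls were kept under total-count scaling.

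Tubulins, the subunits of microtubules, accounted for the 6 falls among 15 tubulin and keratin genes tested, with 3, 6, 5 and 5 kept. Tuba1c fell from 574 and 458 to 169.8 and 159.9 CPM (log2 fold change -1.65, SE 0.19, adjusted p = 0.00222) and Tubb6 from 64.6 and 66.8 to 18.8 and 30.2 CPM, both towards 0 h. Tubb2a, whose level at 24 h was that of the uninjured sections, dropped from 298 and 199.5 to 51.6 and 79.4 CPM against 255 ± 19.3 CPM at 0 h and thus moved away. Of 26 actin cytoskeleton and migration genes 3 fell (11.5%), near the background share, including Lasp1 and Actg1. On the higher side lay 14 members, and 1, 2, 2 and 2 of the calls were kept. Anxa2, the marker of the study's migratory hepatocytes, was at 72.4 and 112 CPM at 24 h and 78.5 and 200.4 CPM at 36 h, so that 36 h A lay between the 24 h sections (adjusted p = 0.374).

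**Figure D3:**
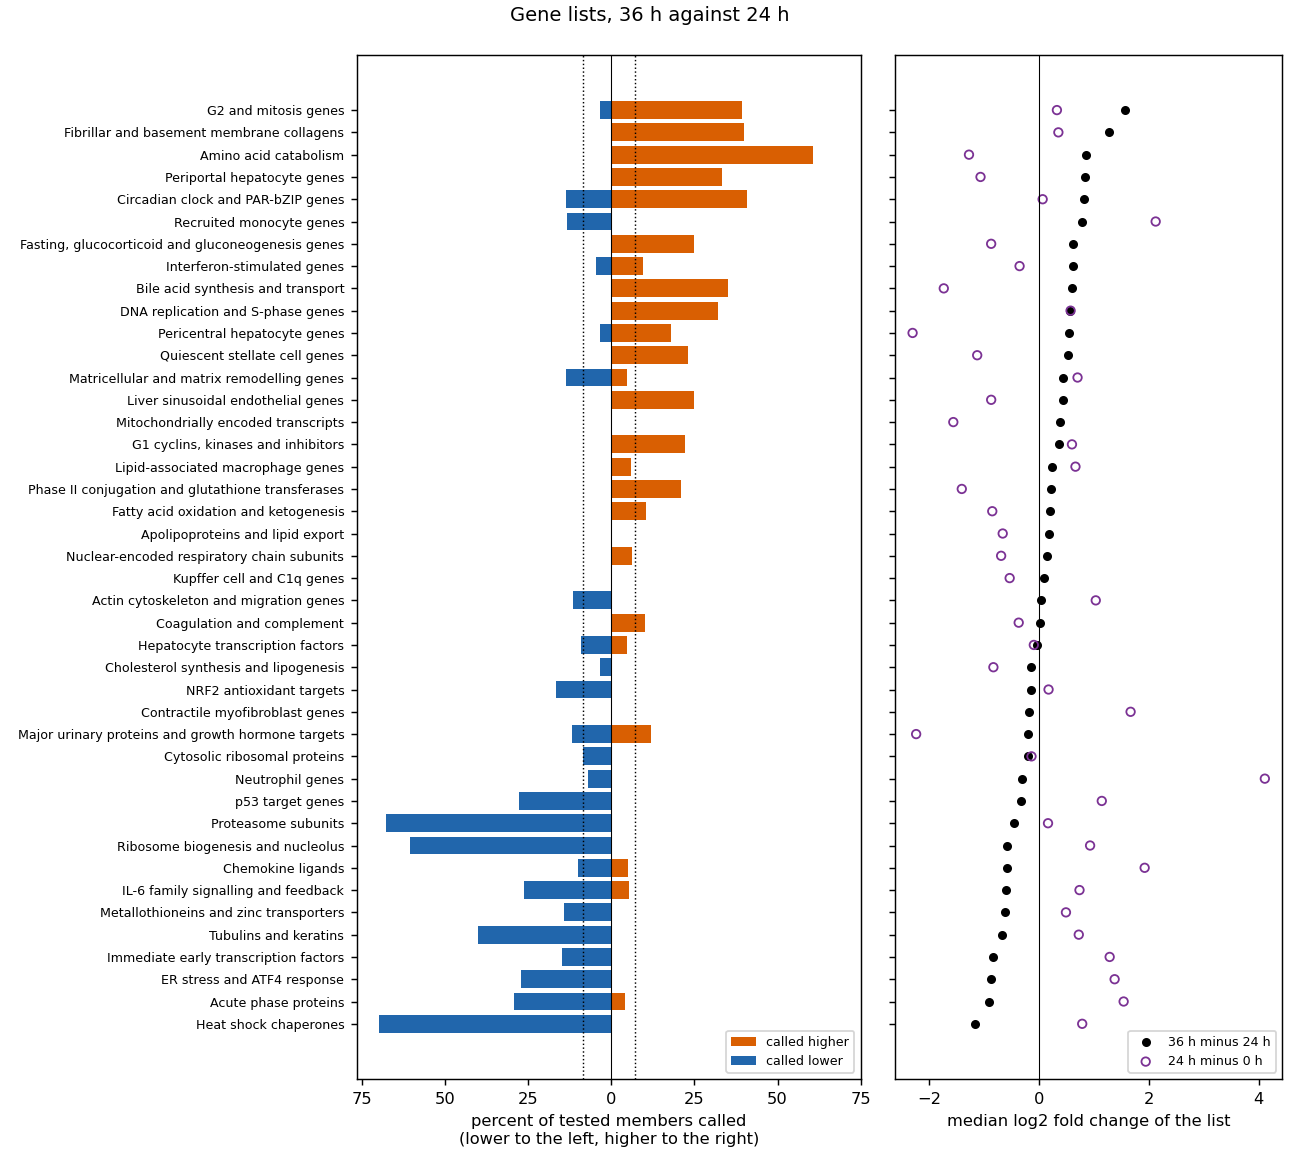
For each of the gene lists, the left panel gives the percentage of tested members called lower (blue, to the left) and higher (orange, to the right) at 36 h against 24 h, with dotted lines at the shares over all genes, 8.58% and 7.04%. The right panel gives the list's median log2 fold change for 36 h minus 24 h (filled) and for 24 h minus 0 h (open), 2 comparisons that share the 24 h sections. Heat shock chaperones, proteasome subunits and ribosome biogenesis show the largest shares of falls, and amino acid catabolism the largest share of rises.

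Several lists of hepatocyte enzymes had rises and no falls. These lists share members, such as Tat, so their calls are not separate from each other. The largest share of rises in any list was in amino acid catabolism, with 17 rises and no fall among 28 genes tested (median 0.86 for 36 h minus 24 h and -1.27 for 24 h minus 0 h) and 7, 10, 13 and 14 calls kept with a section left out. Cth, which makes cysteine for glutathione, was measured at 48.03 and 55.3 CPM at 24 h and 158 and 248 CPM at 36 h, against 329.9 ± 56.6 CPM (SD, n = 3) at 0 h (log2 change 1.98 ± 0.26 SE, adjusted p = 0.00322 by edgeR). The methyl-group regulator Gnmt rose from 511 and 691 to 1723 and 1808 CPM, and the tyrosine enzyme Hpd from 383 and 443 to 971 and 1341 CPM. Tat, the glucocorticoid-induced tyrosine aminotransferase, rose from 56.7 and 142 to 348 and 1020.0 CPM, the latter on either side of the uninjured level of 695 ± 174 CPM. Afmid, of tryptophan breakdown, went from 7.85 and 12.7 to 52.4 and 39.4 CPM.

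Hepatocytes around the portal vein carry out urea synthesis and gluconeogenesis, and those around the central vein carry out drug oxidation. Among 27 periportal genes 9 rose and none fell (median 0.84), and 5, 6, 8 and 8 of these calls were kept with a section left out. Of the urea cycle enzymes, Cps1, which commits ammonia to the cycle, rose from 660.3 and 609 to 1444 and 1758 CPM, still under its 0 h level of 1905 ± 63.4 CPM. Ass1 rose from 232 and 242 to 735 and 1271 CPM (log2 fold change 2.08, SE 0.30, adjusted p = 0.00431), around the uninjured 1031 ± 181 CPM. Asl rose from 196 and 242 to 613 and 1007 CPM and overshot its 0 h level of 364 ± 28.6 CPM, and so was the member of the list that lay farther away at 36 h. The histidine enzyme Hal rose from 68.97 and 94.7 to 229 and 245 CPM, with 382 ± 12.7 CPM at 0 h. Among 28 pericentral genes, 5 rose and 1 fell (median 0.55), and the list, at a median of -2.30 against 0 h at 24 h, was still at -1.85 at 36 h. Gsta3, a glutathione transferase, rose from 449.9 and 317 to 1087 and 830.1 CPM. Cyp2e1 rose from 433 and 256 to 649 and 605 CPM and reached only a part of its 0 h level of 2428 ± 391 CPM (log2 fold change against 0 h -1.95). Glutamine synthetase, Glul, confined to the innermost pericentral cells, stood at 26.7 and 14.9 CPM at 24 h and 21.1 and 43.004 CPM at 36 h and was not called (adjusted p = 0.263). With a section removed 3, 3, 3 and 2 of the 6 pericentral calls were kept.

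Genes of the fasted and glucocorticoid-exposed liver gave 6 rises and no fall among 24 tested (2, 4, 6 and 3 kept), and all 6 were nearer to the 0 h level. Beside Upp2 and Tat these included the glucocorticoid-induced Tsc22d3 (GILZ), which went from 31.4 and 34.4 to 77.96 and 119 CPM, Fbp1, a gluconeogenic phosphatase, from 312 and 235 to 602 and 554 CPM, and Ppargc1a, a coactivator of the fasting response, from 1.46 and 1.88 to 2.98 and 10.2 CPM. Among 29 genes of fatty acid oxidation 3 rose (10.3%), near the 7.04% of all genes called higher. The carnitine transferase Cpt1a, the entry step into mitochondria, went from 53.9 and 62.3 to 98.7 and 144 CPM, but no call of this list survived the removal of 24 h A or 24 h B. Bile acid genes gave 7 rises among 20 tested (2, 2, 4 and 6 kept), including the uptake carrier Slc10a1 (NTCP), from 200.2 and 114 to 293 and 331 CPM, and the canalicular pump Abcc2, from 84.2 and 78.01 to 149 and 124 CPM. Conjugating enzymes gave 5 rises among 24 (4, 3, 3 and 4 kept), among them Sult1b1, a sulfotransferase, from 5.91 and 5.07 to 12.5 and 14.6 CPM, and Ugt2a3, a glucuronosyltransferase, from 47.3 and 31.4 to 109.9 and 81.96 CPM. Of 30 coagulation and complement genes 3 rose (2, 2, 3 and 3 kept), again near the background share, including F13b, the carrier subunit of factor XIII, from 23.5 and 20.2 to 53.7 and 54.5 CPM. No member of the apolipoprotein list (19 tested) or of the mitochondrially encoded list (13 tested) was called. Alb, for albumin, was measured at 45565 and 51575 CPM at 24 h and 49889.6 and 60550.5 CPM at 36 h (adjusted p = 0.496).

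Growth hormone acts on the liver through Stat5 and maintains the major urinary proteins (MUPs). Among 25 genes of this list 3 rose and 3 fell, near the background shares of 7.04% and 8.58%. The 3 fallers lay farther below the uninjured level at 36 h than at 24 h. Cish, the feedback inhibitor that Stat5 induces, had been near its 0 h level of 42.3 ± 12.5 CPM (SD, n = 3) at 24 h, with 42.7 and 30.6 CPM, and dropped to 3.07 and 4.77 CPM at 36 h (log2 change -3.23 ± 0.73 SE, adjusted p = 0.0211 by edgeR). Mup11 went from 764 and 1262 to 294 and 76.9 CPM, having been at 9100.5 ± 3610.3 CPM at 0 h, and Mup9 from 53.7 and 43.6 to 20.6 and 10.2 CPM. The MUP genes are near-identical copies, so that the division of reads among them is uncertain. Bcl6, a repressor of this programme, rose from 4.88 and 6.80 to 48.8 and 9.42 CPM, and most of that rise lay in 36 h A. The growth hormone receptor, Ghr, rose from 86.2 and 57.3 to 152 and 118 CPM towards 302 ± 2.03 CPM. Calls kept with a section left out numbered 2, 1, 3 and 3 of the 6.

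The circadian clock genes moved away from the uninjured level. In the clock, Arntl (BMAL1) and its partners Clock and Npas2 drive E-box genes such as the Per, Cry, Dbp and Nr1d genes, whose products close the loop, and Dbp, Tef and Hlf pass the rhythm on through D-box sequences. Of 22 genes tested 9 rose and 3 fell, and 11 of these 12 lay farther from the 0 h level at 36 h. The list's median had been 0.07 at 24 h against 0 h and was 0.76 at 36 h. Dbp was measured at 4.17 and 2.90 CPM at 24 h, close to the uninjured 5.31 ± 2.36 CPM (SD, n = 3), and at 63.4 and 28.8 CPM at 36 h (log2 change 3.69 ± 0.47 SE, adjusted p = 0.00341 by edgeR). Per3 rose from 1.18 and 1.40 to 41.8 and 11.6 CPM, and Usp2, a rhythmic deubiquitinase, from 1.38 and 2.87 to 26.5 and 43.3 CPM. Tef rose from 20.5 and 29.99 to 129 and 77.1 CPM, and Ciart, a repressor of the clock, from 0.452 and 0.67 to 4.49 and 18.03 CPM. Cry2 moved less, from 11.2 and 11.8 to 26.7 and 22.5 CPM. The positive limb fell. Arntl went from 8.80 and 9.32 to 3.33 and 3.57 CPM, against 16.5 ± 1.03 CPM at 0 h, and Npas2 from 1.83 and 1.56 to 0.0869 and 0.4 CPM. Nfil3, the repressor that opposes Dbp at D-boxes, fell from 41.3 and 81.4 to 22.9 and 12.7 CPM. At 48 h Dbp was at 8.94 ± 1.63 CPM (SD, n = 4), Per3 at 4.51 ± 1.10 CPM and Arntl at 11.5 ± 1.56 CPM. Each of these means lay between the means at 36 h and at 0 h. For Dbp the 48 h and 0 h sections overlapped. Every 48 h section was still above all 0 h sections for Per3 and below all of them for Arntl. All 12 calls held under total-count scaling, and 6, 8, 11 and 11 held with a section left out. The labels put the groups 12 h apart and give no clock time of injection or collection, so time after APAP and time of day cannot be told apart.

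Upstream stretches of 3 clock genes that rose are shown with their motifs in capitals, the E-box CACGTG in Ciart and Tef and the D-box (TTATGTAA or TTACGTAA, both strands) in Per3, each again the 250 bases before the RefSeq start on GRCm38.p6.
Ciart, chr3:95882229-95882478, minus strand: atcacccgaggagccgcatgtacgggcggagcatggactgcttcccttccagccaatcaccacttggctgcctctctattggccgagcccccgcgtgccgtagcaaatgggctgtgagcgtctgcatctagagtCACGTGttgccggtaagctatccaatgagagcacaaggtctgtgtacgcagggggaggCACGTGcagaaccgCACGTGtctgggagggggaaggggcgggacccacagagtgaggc
Tef, chr15:81802423-81802672, plus strand: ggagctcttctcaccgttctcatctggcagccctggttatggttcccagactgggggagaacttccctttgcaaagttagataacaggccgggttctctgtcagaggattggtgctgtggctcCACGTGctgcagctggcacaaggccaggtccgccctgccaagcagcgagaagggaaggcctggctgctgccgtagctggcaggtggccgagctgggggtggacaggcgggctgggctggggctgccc
Per3, chr4:151044666-151044915, minus strand: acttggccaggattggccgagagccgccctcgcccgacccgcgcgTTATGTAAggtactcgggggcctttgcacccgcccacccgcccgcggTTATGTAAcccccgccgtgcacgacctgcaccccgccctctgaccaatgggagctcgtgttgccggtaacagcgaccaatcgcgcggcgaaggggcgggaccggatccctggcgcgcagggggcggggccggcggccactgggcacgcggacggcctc

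Of the 22 clock genes 18 had a promoter in the RefSeq table. An E-box lay within 5 of these 18 windows of 300 bases (Bhlhe41, Ciart, Cry1, Per1 and Tef), against 8.09% of all genes, and within 2 of the 10 windows of called clock genes (Ciart and Tef), and a D-box within 1 of 18, Per3, against 1.23%. Ciart held 3 E-boxes and Per3 2 D-boxes upstream of the start.

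**Figure D4:**
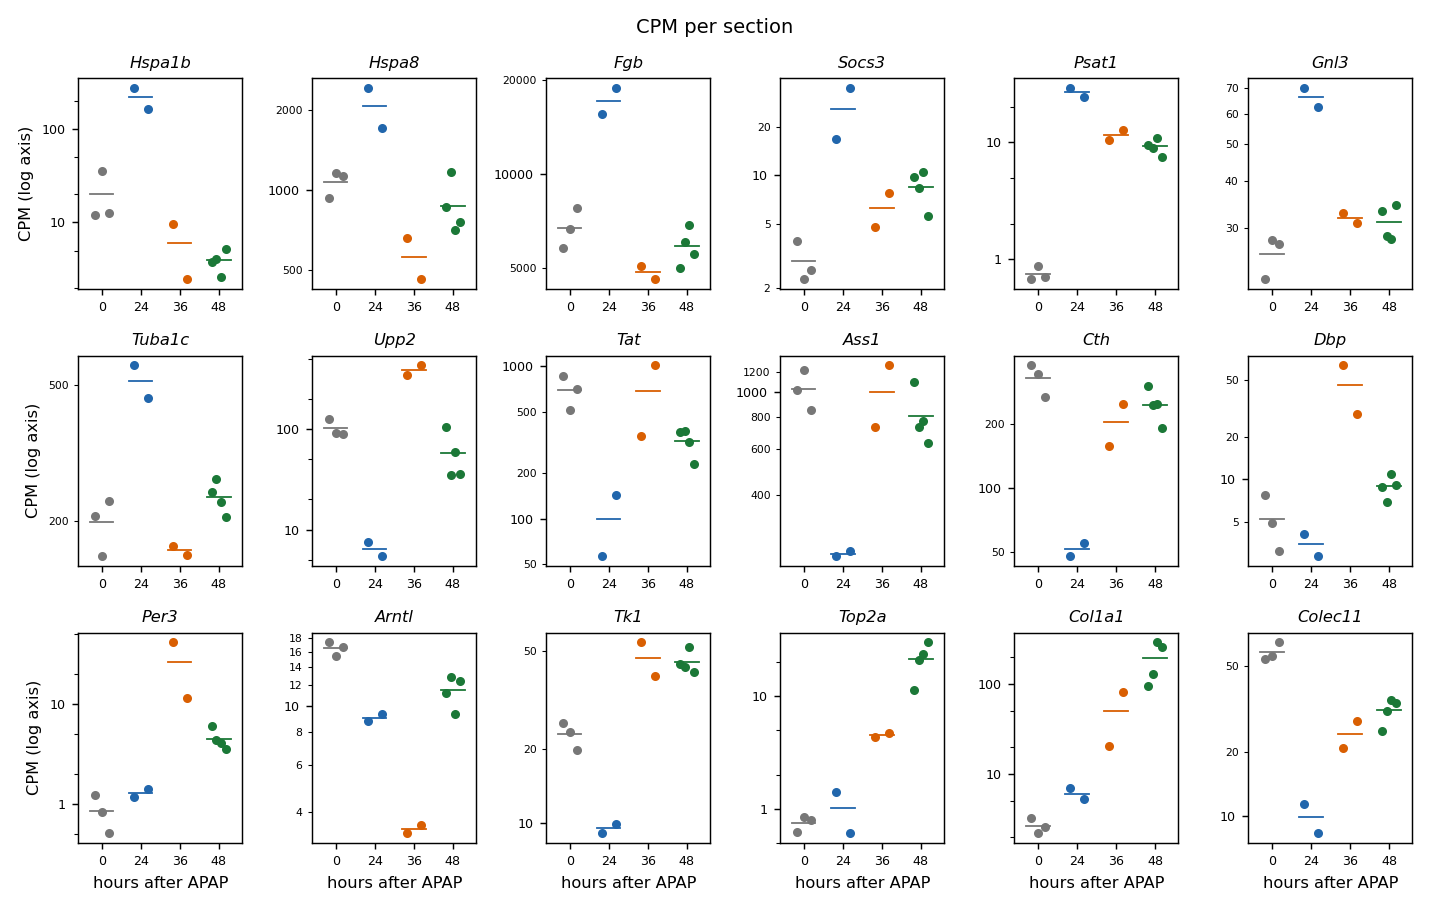
CPM of 18 genes in every section on log axes, by hours after APAP, with a point for each section (3 at 0 h, 2 at 24 h, 2 at 36 h, 4 at 48 h) and a line at the group mean. Hspa1b, Hspa8, Fgb, Socs3, Psat1, Gnl3 and Tuba1c fell from 24 h to 36 h, Upp2, Tat, Ass1, Cth, Tk1 and Colec11 rose towards or past their 0 h level, and Dbp, Per3, Top2a and Col1a1 rose away from it, while Arntl fell.

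Most called genes of S phase, G2 and mitosis lay farther from the uninjured level at 36 h. Among 28 DNA replication and S-phase genes 9 rose and none fell (median 0.56), and 5, 3, 9 and 5 of these calls were kept with a section left out. Tk1, the thymidine kinase of S phase, rose from 9.08 and 9.89 to 54.5 and 39.6 CPM, having been at 22.9 ± 2.92 CPM (SD, n = 3) at 0 h (log2 change 2.31 ± 0.18 SE, adjusted p = 0.00077 by edgeR). It was the member of these 9 that lay under its 0 h level at 24 h and counted as nearer to it at 36 h. Lig1, the replicative DNA ligase, rose from 4.19 and 4.50 to 9.01 and 11.6 CPM, Uhrf1, which copies DNA methylation, from 2.69 and 1.18 to 8.17 and 7.45 CPM, and Mcm5 of the replicative helicase from 8.39 and 4.21 to 13.96 and 18.2 CPM. Among 28 genes of G2 and mitosis 11 rose and 1 fell (median 1.56). Topoisomerase Top2a went from 1.42 and 0.606 to 4.37 and 4.71 CPM, the mitotic kinase gene Cdk1 from 2.86 and 1.88 to 6.92 and 7.93 CPM and the proliferation marker Mki67 from 1.23 and 0.223 to 4.75 and 3.77 CPM, and each was far higher at 48 h, with 21.5 ± 7.85, 29.8 ± 11.8 and 22.8 ± 8.75 CPM (SD, n = 4). The lone faller was Ccnf, from 45.2 and 37.7 to 30.2 and 18.7 CPM. Of the 12 calls 3, 1, 7 and 1 were kept with a section left out, and 5 were kept without the hepatocyte-poor spots. Of 18 G1 genes 4 rose, Cdk2 and Cdkn2c towards the 0 h level and Ccne2 and E2f1 away from it, and 0, 0, 3 and 0 of these were kept.

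Collagen genes rose, and unevenly between the 36 h sections. Collagens I, III and VI are made by stellate cells and fibroblasts once activated. Of 15 collagen genes 6 rose and none fell (median 1.28), and 5 of the 6 moved away from 0 h. Col1a1 was measured at 6.88 and 5.20 CPM at 24 h and 20.5 and 80.4 CPM at 36 h, against 2.65 ± 0.52 CPM (SD, n = 3) at 0 h (log2 change 3.06 ± 0.69 SE, adjusted p = 0.0211 by edgeR). Col1a2 rose from 13.7 and 9.16 to 36.4 and 115 CPM and Col3a1 from 21.4 and 12.9 to 45.6 and 113 CPM. For all 6 called collagens 36 h B was higher than 36 h A, in the section that also held 21.3 CPM of mesothelial and 462 CPM of mesenchymal markers against 1.91 and 204 CPM. The part of these cells in the collagen result was not tested. Of the 6 calls 0, 0, 6 and 0 were kept with 24 h A, 24 h B, 36 h A and 36 h B left out, so they stood only where 36 h A was the section removed. The contractile genes of myofibroblasts, 12 tested, gave no call, and Acta2, for smooth muscle actin, was at 57.4 and 43.1 CPM at 24 h and 21.1 and 75.2 CPM at 36 h (adjusted p = 0.94). Markers of quiescent stellate cells gave 3 rises among 13 (2, 2, 3 and 2 kept), each towards 0 h. Vipr1 rose from 3.57 and 3.51 to 8.08 and 16.98 CPM (log2 fold change 1.82, SE 0.28, adjusted p = 0.00507), and the collectin Colec11 from 11.4 and 8.36 to 20.9 and 27.8 CPM, with 58.2 ± 5.84 CPM at 0 h. Sinusoidal endothelial genes gave 5 rises among 20 (2, 0, 5 and 2 kept), including Kdr, the VEGF receptor, from 20.2 and 16.97 to 28.04 and 28.99 CPM, and Dnase1l3, an endothelial nuclease, from 28.1 and 23.7 to 39.5 and 49.995 CPM. Summed over the endothelial list, 36 h A (570.0 CPM) lay at the 24 h level (569 and 604 CPM) and 36 h B above it (859 CPM), and the list's median went from 0.44 to 0.098 without 36 h B. The quiescent stellate list summed to 413 and 359 CPM at 24 h and 393 and 637 CPM at 36 h, and its median went from 0.53 to 0.20 without 36 h B. Among 22 matricellular and remodelling genes 3 fell and 1 rose (2, 2, 4 and 3 kept). These were 13.6% called lower and 4.55% called higher, against 8.58% and 7.04% of all genes. On the higher side lay 14 of the 22, with a list median of 0.44. The riser was Lum, from 7.61 and 5.71 to 11.2 and 17.8 CPM. The collagenase Mmp13 fell from 4.60 and 3.99 to 1.25 and 1.11 CPM and fibronectin, Fn1, from 1403 and 1842 to 878 and 1009.6 CPM.

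None of the lists in this paragraph was called more often than all genes tested (15.6%). The chemokine, interferon-stimulated and recruited monocyte lists lay close to that share. Of 15 Kupffer cell and complement C1q genes none was called, and of 17 genes of lipid-associated macrophages 1 rose. That was Gpnmb, a glycoprotein of phagocytes laden with debris, which went from 7.81 and 9.60 to 30.9 and 39.5 CPM (log2 change 2.02 ± 0.39 SE, adjusted p = 0.0119 by edgeR) on its way to 145 ± 57.7 CPM (SD, n = 4) at 48 h. The call was lost without 24 h A and held without each of the other 24 h and 36 h sections. Its companion Trem2, at 7.89 and 10.4 CPM at 24 h and 14.4 and 33.04 CPM at 36 h, was not called (adjusted p = 0.0566). Among 14 neutrophil genes 1 fell, the cytokine gene Il1b, from 12.97 and 19.4 to 3.36 and 2.51 CPM, and no removal of a section kept that call. Il1b was already at 15.7 ± 5.91 CPM (SD, n = 3) at 0 h, where the 5 neutrophil markers summed to at most 9.055 CPM, so it did not follow those markers. S100a9, the main neutrophil calgranulin, was at 20.4 and 70.2 CPM at 24 h and 11.2 and 24.7 CPM at 36 h, so the groups overlapped. Of 15 recruited monocyte genes 12 lay higher at 36 h, with a median of 0.79 that turned to -0.48 without 36 h B, and the calls were the falls of Thbs1 and Fn1 given above (2, 1, 2 and 2 kept). Fn1 was at 972 ± 34.9 CPM (SD, n = 3) at 0 h. In all 4 sections it was lower in spots poor in hepatocyte transcripts than in the others, at 36 h with 777 and 809 against 982 and 1074 CPM. Its fall can therefore not be read as a change of monocytes. Ccr2, the receptor that brings monocytes in, stood at 2.58 and 4.98 CPM at 24 h and 5.27 and 9.65 CPM at 36 h (adjusted p = 0.0959). Lyz2, lysozyme of myeloid cells, was at 298 and 288 CPM at 24 h and 204 and 281 CPM at 36 h (adjusted p = 0.566). Among 20 chemokines Ccl4 fell from 9.27 and 9.41 to 3.53 and 1.23 CPM, Ccl3 from 3.76 and 3.38 to 1.85 and 2.11 CPM, and Cxcl12, a constitutive chemokine of stromal cells, rose from 79.6 and 95.3 to 132 and 139 CPM, with 0, 2, 2 and 1 of the 3 kept. The neutrophil attractant Cxcl1, at 48.2 and 118 CPM at 24 h and 19.8 and 15.2 CPM at 36 h, just missed the threshold (adjusted p = 0.0508). Interferon-stimulated genes gave 2 rises and 1 fall among 21 tested (0, 0, 2 and 1 kept). The remaining lists gave few calls, with 1 fall among 7 metallothionein and zinc transporter genes (0, 1, 1 and 1 kept), and 2 rises among 32 respiratory chain subunits (0, 1, 2 and 2 kept). There was 1 fall among 30 genes of cholesterol synthesis (0, 1, 0 and 0 kept) and 1 rise and 2 falls among 22 hepatocyte transcription factors (0, 0, 2 and 0 kept).

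Because the share of spots poor in hepatocyte transcripts differed between the times, levels were also read separately in these spots and in the others, as CPM of the UMIs within each class and with no test. The poor spots held 17.7% and 17.9% of UMIs at 24 h and 6.81% and 4.77% at 36 h. Hspa1b stood at 788 and 347 CPM in the poor spots of the 24 h sections and 169.7 and 121 CPM in the others, and at 36 h it stood at 15.9 and 6.28 CPM in the poor spots and 10.2 and 2.43 CPM in the others, so it was lower at 36 h in both classes. Thbs1, at 74.9 and 101 CPM in poor spots at 24 h, was at 14.5 and 19.5 CPM there at 36 h, and outside them it went from 20.3 and 20.9 to 1.89 and 5.07 CPM. Upp2 was higher at 36 h in both, going from 6.76 and 2.62 to 163 and 241 CPM in poor spots and from 7.71 and 5.96 to 392 and 465 CPM elsewhere. Col1a1 reached 91.9 and 284 CPM in the poor spots at 36 h, from 12.7 and 8.05 CPM, and 17.6 and 74.5 CPM in the others, from 5.73 and 4.47 CPM. Gpnmb reached 158 and 156 CPM in the poor spots, from 20.5 and 18.9 CPM. Anxa2 was at 150.1 and 232 CPM in the poor spots at 24 h and 256 and 471 CPM at 36 h, and in the other spots at 56.7 and 82.97 CPM at 24 h and 74.2 and 198 CPM at 36 h, where the groups overlapped. When the poor spots were removed from all sections before the fit, 1988 genes were called, 1835 of them among the 2315, and the list medians of chaperones and of amino acid catabolism were -1.03 and 0.83 against -1.15 and 0.86 in all spots.

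**Figure D5:**
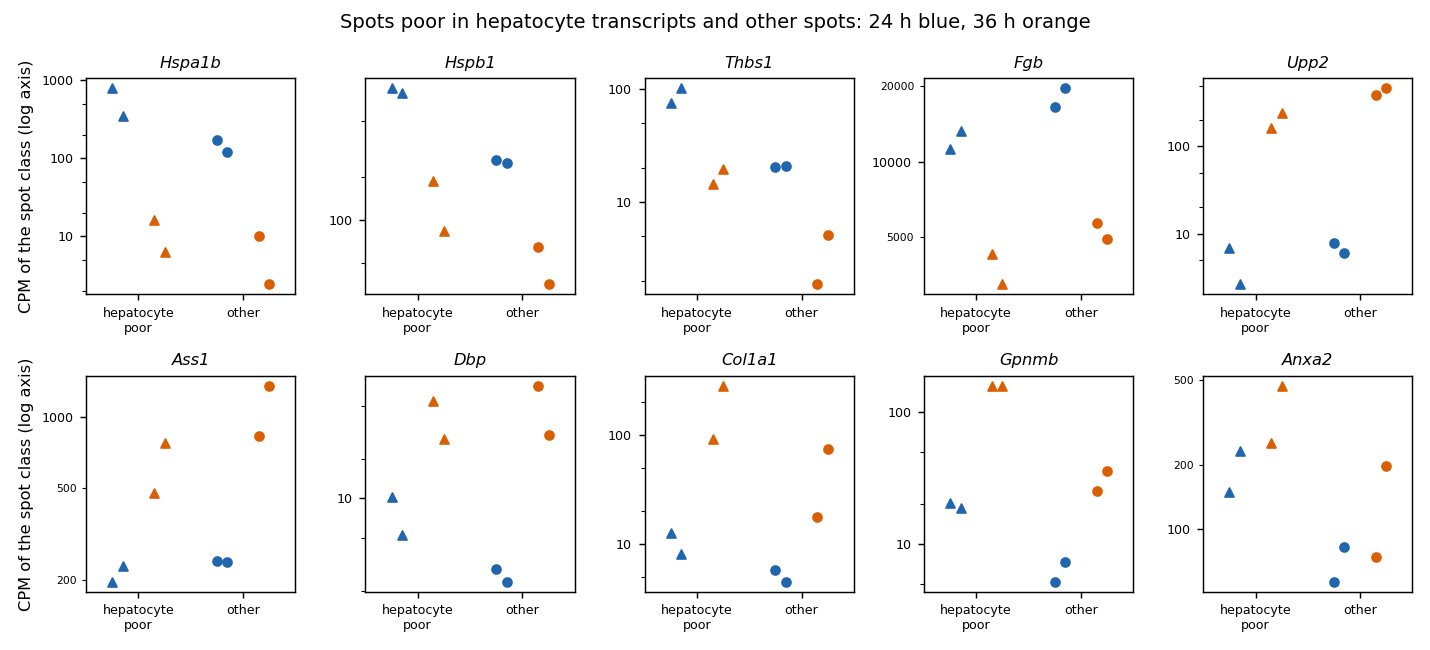
CPM of 10 genes within spots poor in hepatocyte transcripts (triangles) and within the other spots (circles), on log axes, for sections A and B at 24 h (blue) and at 36 h (orange). Hspa1b, Hspb1, Thbs1 and Fgb lie lower at 36 h in both classes of spot and Upp2, Ass1, Dbp, Col1a1 and Gpnmb lie higher in both, whereas the Anxa2 values at 24 h and 36 h overlap in the other spots.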

How the data were processed

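The authors deposited, for each section, UMI counts per gene and spot (Space Ranger 1.0.0 on mm10, with Seurat 4.1.1 also named, both per the submitters' processing notes) and the spot positions. No count had been normalised. Here the counts were summed per section over tissue spots with at least 800 genes and at most 20% mitochondrial UMIs, and 31053 genes were filtered with filterByExpr, scaled with TMM and fitted over all 11 sections with edgeR 4.0.16 (quasi-likelihood test with robust dispersions, adjusted p by Benjamini-Hochberg over 14821 genes, called under 0.05). CPM values use TMM-scaled libraries, and medians and fold changes are fitted log2 values. The labels tie no section to an animal, and replicate letters A and B were used as names only.

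A called gene was nearer to 0 h where its absolute log2 difference from the 0 h sections was smaller at 36 h than at 24 h. Named genes were the 8 with the largest change per class at 10 CPM or more, up to 5 per list at 5 CPM or more, and 15 fixed genes, but 21 others in the text were chosen after their values were seen: Abcc2, Atf4, Bag3, Ccl3, Ccne2, Chordc1, Cps1, Cry2, Fbp1, Ghr, Gnmt, Hp, Hpd, Hsp90aa1, Hspa5, Hspa8, Lepr, Mmp13, Nop2, Npas2 and Top2a. The comparison and the gene lists were themselves chosen with earlier results of these data known. In simulated data with 200 changed genes among 14673, the test recovered 5 of 67 changed by 1.5-fold, 25 of 67 by 2-fold and 55 of 66 by 4-fold, and 4 of its 89 calls were false. The simulated sections varied independently, with the spread that was estimated from these data. These rates thus leave out differences between livers or slides and do not give the share of false calls among the reported genes. Errors and p-values cover sections, not animals or slides. Promoters came from a RefSeq table of GRCm38.p6. Alternatives were other scalings, filters, spot sets and sample sets, a replicate block, DESeq2 1.42.0 and leaving out each section.
A few genes are not reported here.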

Additional observations from a re-analysis of the deposited data

How the results depend on the processing

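Of 120 genes followed through the alternatives 109 were called, and none of these changed direction in any alternative. All genes called but 1 had both 36 h sections on the same side of both 24 h sections. Leaving out a section could therefore hardly reverse a called gene, and the lack of reversals there is no separate support. Of the 109, 45 stayed called in every alternative except the fit on the 24 h and 36 h sections alone, in which 1 stayed. DESeq2 size factors and DESeq2 itself each kept all 109, total-count scaling kept 103, and spots not poor in hepatocyte transcripts kept 96. Removing a section kept from 61 (24 h A) to 105 (48 h A and 48 h D). Of the 42 lists, 11 had a median that changed sign in some alternative. Among genes not called, Acta2 (-0.062 on the log2 scale) turned to 0.028 under total-count scaling and 0.082 without the hepatocyte-poor spots, and between -1.21 (36 h B) and 0.58 (36 h A) with a section left out, Anxa2 (0.60) gave between -0.19 (36 h B) and 1.12 (36 h A), and Cdkn1a (-0.51) between -2.27 (36 h B) and 0.26 (36 h A).

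Over the fits that left out 1 section, the number of genes called ranged from 450 to 3198, higher from 204 to 1578, lower from 246 to 1620, nearer to 0 h from 384 to 1757 and farther from 66 to 1441, the lone section of a time point being assumed to vary like the others. Requiring a 2-fold change left 909 genes (628 higher, 281 lower, 650 nearer, 259 farther). The injured sections alone gave 984 (435 higher, 549 lower, 779 nearer, 205 farther), and the 24 h and 36 h sections alone gave 1 (1 higher, 0 lower, 1 nearer, 0 farther), both with fewer samples to estimate the spread. Total-count scaling gave 672 lower and 1432 higher genes of 2104, with 1315 nearer and 789 farther. DESeq2 gave 891 farther genes among 3187 calls. Genes that were also called and 2-fold changed at 24 h against 0 h numbered 831 nearer and 23 farther, and genes whose distance changed by at least 0.5 numbered 1230 nearer and 291 farther. Where no value above shows it, the cause was not tested.

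The letters A and B were not shown to pair the sections. Deviations of same-lettered sections correlated at 0.287 between 24 h and 36 h, at -0.124 and -0.122 between 24 h and 48 h, and at 0.074 and -0.241 between 36 h and 48 h. With the letter as a replicate block, 2349 genes were called (1059 higher, 1290 lower, 1785 nearer, 564 farther). Depth was 31292663 UMIs or more in each of the 4 sections, but genes near or under 1 CPM rest on few molecules. Npas2 had 17 UMIs over both 36 h sections and Mki67 64 over both 24 h sections, so their values carry a large counting error.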
